A study of Mus musculus with 6 samples.

Results

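The myeloid C-type lectin receptors are a family of cell surface proteins, encoded mostly side by side on mouse chromosome 6, that macrophages, microglia, dendritic cells, monocytes and neutrophils use to sense glycans, lipids and products of dying cells. The genes named for this account were Clec4a2, Clec4a3, Clec4d, Clec4e, Clec4n, Clec5a, Clec7a and Clec12a, 8 in all. Of these, 7 were measured, by 10 probe sets that the platform annotation gives to 1 gene each, among 18193 measured genes. Clec12a, an inhibitory receptor of the family, was not analysed here. Of several probe sets of a gene, the brightest by its mean over the 6 arrays stood for it. The family was selected on its known differences between light-damaged and dark-adapted arrays, the same contrast that is described here, so the levels and differences of its genes are given as a description and support nothing further.

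Gene expression was measured on Affymetrix arrays in the retinal pigment epithelium (RPE), the cell layer that lies behind the photoreceptors and clears their shed tips. There were 3 arrays from light-damaged and 3 from dark-adapted BALB/c mice, an albino strain. Light-damaged mice had 1 week of dark adaptation, then white fluorescent light of 6000 lux for 1.5 h, and the RPE was taken 24 h later. Dark-adapted mice had the same 1 week in darkness and no such exposure. The ages of the mice and the number of animals behind an array were not given in the sources used here, and the p-values reflect the spread of these arrays alone, part or all of which may be technical.

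The receptors fall into signalling types. Clec7a (Dectin-1) binds beta-glucan and carries its own activating tyrosine motif. Clec4e (Mincle), Clec4d (MCL) and Clec4n (Dectin-2) have no such motif and signal through the adaptor Fcer1g, and Clec5a (MDL-1) signals through the adaptor Tyrobp. Both routes recruit the kinase Syk, which acts through the Card9, Bcl10 and Malt1 complex on NF-kB. Clec4a2 (DCIR1) carries the opposite kind of motif, which recruits the phosphatase Ptpn6, and Clec4a3 (DCIR3) belongs to the same DCIR group. In the retina and RPE, cells that carry such receptors are mainly resident microglia and macrophages and blood-derived monocytes.

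The number of arrays limits the precision. Array medians lay between 7.43 and 7.48 on the log2 scale. In both groups replicate 1 lay far from the other 4 arrays on the first principal component, which held 74.44% of the variance. The same arrays differed in a control for RNA quality, the Gapdh 3′ minus 5′ log2 difference. It was 2.48 (light-damaged) and 2.45 (dark-adapted) in replicate 1, against 1.54 to 1.80 in the other 4 arrays. Its part in the offset of replicate 1 was not tested. Same-numbered arrays deviated together from their group means (r across genes of 0.89, 0.62 and 0.86). Crossing the numbers 2 and 3 gave 0.61 and 0.65, so the pairing rests mostly on replicate 1. Replicate number was a block in the comparison because the rule set for the receptors pairs arrays by it. The comparison without the block is given beside it. With only 2 residual degrees of freedom, calls with the block may hold more false ones than the nominal share, as simulated data showed when variances were taken gene by gene from the fit. Fits with the block and a pair left out have fewer still, and calls gained or lost in them carry this limit too. A gene was called where limma's p, with Benjamini-Hochberg adjustment over all 18193 genes, was under 0.05. Every difference subtracts the dark-adapted from the light-damaged log2 level and is given ± the standard error of the fit with the block, with n = 3 per group. The level of one probe set cannot be set against that of another gene's probe set.

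All 7 measured receptors were higher in light-damaged RPE in 3 of 3 replicate pairs, as were 19.9% of all genes. Their differences ran between 0.43 and 2.00 with a median of 0.93, where the median over all genes was 0.0. With the block, 5 of the 7 were called higher and 0 lower, where 3.07% of all genes were called higher and 1.92% lower. For 6 of the 7 every light-damaged array was above every dark-adapted array, which held for 6.61% of all genes. Without the block 1 of the 7, Clec4a3, was called, where 0.0495% of all genes were called higher, and 6 of the 7 were higher at an unadjusted p under 0.05, where 3.96% of all genes were. In either direction, 19.0% of all genes had an unadjusted p under 0.05 with the block and 5.94% without it, against which the counts at that threshold for gene lists can be read. Leaving out the replicate 1, 2 or 3 pair left 7, 6 or 4 receptors called. In such whole-tissue samples, more cells of a type and more RNA per cell cannot be told apart.

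The DCIR pair had the largest differences. Clec4a3 had log2 levels of 8.82, 9.03 and 8.88 in light-damaged RPE, against 6.82, 6.90 and 6.995 in dark-adapted RPE. The arrays of each group lay close together and the groups were far apart, at a difference of 2.00 ± 0.09, which is 4.01-fold and ranked 19 among all genes. Its adjusted p (limma) was 5.0e-04 with the block and 0.0066 without it. The call without the block was lost when any array other than light-damaged replicate 1 was left out. Clec4a2, the DCIR1 gene, had levels of 9.10, 8.99 and 8.73 in light-damaged RPE, against 7.56, 7.37 and 7.43 in dark-adapted RPE. Its groups did not overlap, and the difference was 1.49 ± 0.10 or 2.81-fold (limma adjusted p 0.0015 with the block, 0.0516 without it). A second, dimmer probe set of Clec4a2, with a mean level of 6.97, differed by only 0.02 ± 0.09, so the difference of Clec4a2 rests on the brighter probe set, and the mean of both gave 0.76.

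The receptors that signal through Fcer1g came next. Clec4d had levels of 7.77, 7.13 and 7.08 in light-damaged RPE, against 6.87, 5.93 and 6.18 in dark-adapted RPE. Dark-adapted replicate 1 was high within its group and stayed below every light-damaged array, and the difference was 1.00 ± 0.10 or 2.00-fold. The Clec4d mean over the 6 arrays, 6.83, was under the lower quartile of gene means (6.93). Without detection calls, such levels cannot be told apart from background. Clec4n had levels of 8.95, 8.59 and 8.24 in light-damaged RPE, against 8.03, 7.55 and 7.65 in dark-adapted RPE. Its groups were also separate, with a difference of 0.85 ± 0.11, and its other probe set gave 0.84 ± 0.10. Clec4d and the brighter Clec4n probe set are of a kind (s_at) that can bind related transcripts. With the block, the adjusted p (limma) was 0.0057 for Clec4d and 0.0128 for Clec4n. Without it, the values were 0.5457 and 0.4172.

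Clec4e, whose protein Mincle forms a complex with the Clec4d protein and is induced in activated macrophages, was the most uneven of the 7. It had levels of 7.41, 5.68 and 5.83 in light-damaged RPE, against 5.76, 5.26 and 5.09 in dark-adapted RPE. The mean over the 6 arrays, 5.84, was under the lower quartile of gene means (6.93). Without detection calls, such levels cannot be told apart from background. Light-damaged replicate 1 stood well above the other arrays, and light-damaged replicate 2 was below dark-adapted replicate 1, so the groups overlapped. The 3 pairs differed by 1.65, 0.42 and 0.74, and the fitted difference of 0.93 ± 0.22 was not called (limma adjusted p 0.0699). Without the replicate 1 pair the difference was 0.58 with an adjusted p (limma) of 0.030, and without the replicate 2 pair it was 1.19 with 0.014, so that either omission brought the call. A dimmer Clec4e probe set differed by 0.18 ± 0.10, and the mean of both gave 0.56.

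Clec5a, the receptor that uses Tyrobp, had levels of 6.02, 5.99 and 6.09 in light-damaged RPE, against 5.85, 5.49 and 5.50 in dark-adapted RPE. As for Clec4e, the mean of 5.82 was under the lower quartile of gene means (6.93), where background cannot be told apart. The light-damaged arrays lay close together above the dark-adapted ones, with the smallest difference of the 7 at 0.43 ± 0.11 (limma adjusted p 0.0920, not called). Without the replicate 1 pair it was 0.55 with an adjusted p (limma) of 0.019. Clec7a, the beta-glucan receptor, had levels of 10.75, 10.14 and 10.60 in light-damaged RPE, against 10.03, 9.36 and 9.57 in dark-adapted RPE. Dark-adapted replicate 1 came near light-damaged replicate 2 but did not reach it, and the difference was 0.84 ± 0.10 or 1.79-fold (limma adjusted p 0.0089 with the block, 0.4817 without it). Without the replicate 3 pair it was 0.75 with an adjusted p (limma) of 0.0643 and was not called.

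**Figure D1:**
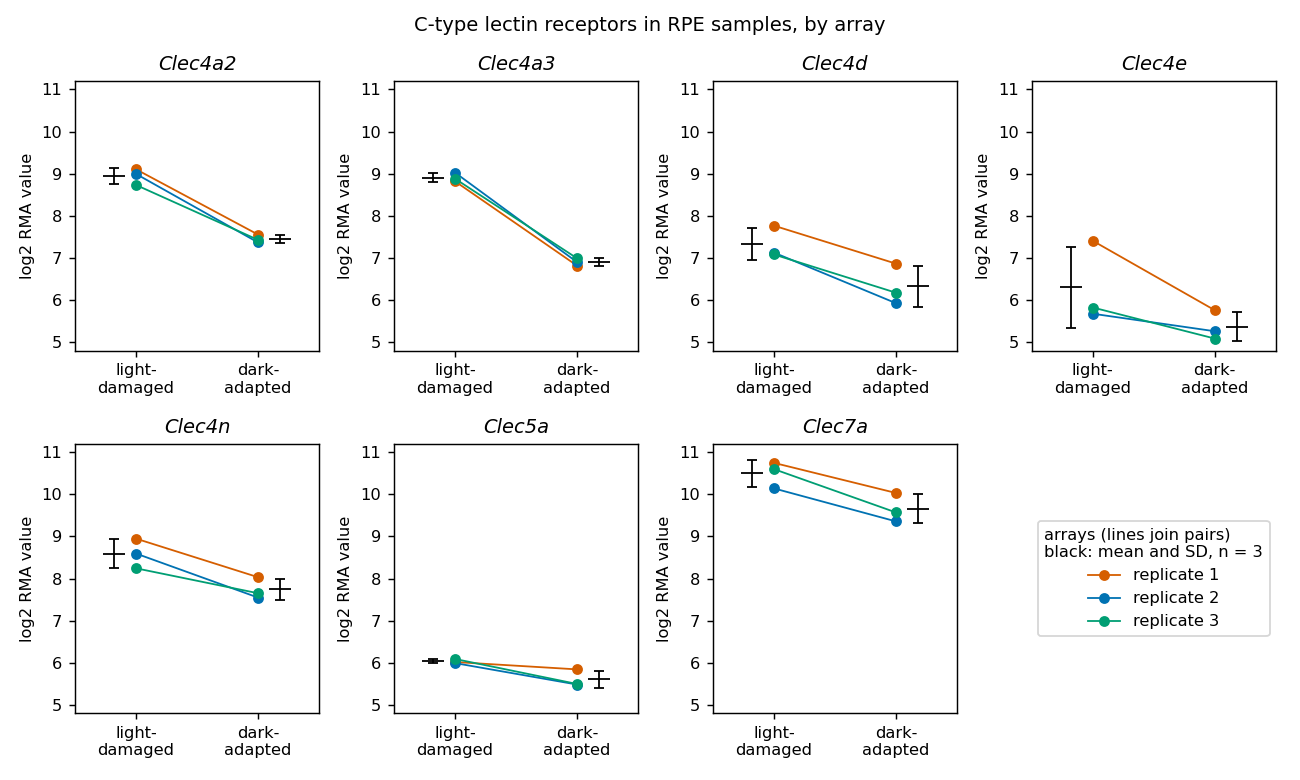
Log2 level (vertical axis) of each of the 7 measured receptors in the 3 light-damaged arrays (left in each panel) and the 3 dark-adapted arrays (right). Points are single arrays, lines join arrays of 1 replicate number, black marks are the mean and SD (n = 3), and in every panel but that of Clec4e the light-damaged arrays are all above the dark-adapted arrays.

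The 19 other measured genes with a Clec symbol, a list made by symbol alone, did not pass the test. With the block 0 of 19 were called by limma, where 3.07% of all genes were called higher and 1.92% lower. At an unadjusted p under 0.05 there were 5 (Clec2d, Clec10a, Clec14a, Clec4b1 and Clec18a), where 19.0% of all genes had one. Without the block there were 0 of the 19 at either threshold. Their median difference was 0.06, where that of the 7 receptors was 0.93. The largest were Clec2d at 0.50 ± 0.12 (limma adjusted p 0.0763), Clec10a, a lectin of macrophages and dendritic cells, at 0.37 ± 0.11 (0.139) and Clec14a, an endothelial gene, at 0.34 ± 0.09 (0.106). The lowest were Clec18a at -0.29 ± 0.10 (limma adjusted p 0.175), Clec2m at -0.12 ± 0.09 and Clec2l at -0.05 ± 0.09. Leaving out the replicate 1 pair brought a call for 1 gene, Clec14a, and weighting the arrays by their quality brought 2 calls, Clec14a and Clec18a. A list by symbol leaves out other C-type lectins. Mrc1, a C-type lectin among the macrophage markers below, was called higher at 1.21 ± 0.13 (limma adjusted p 0.0068), though its groups overlapped.

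**Figure D2:**
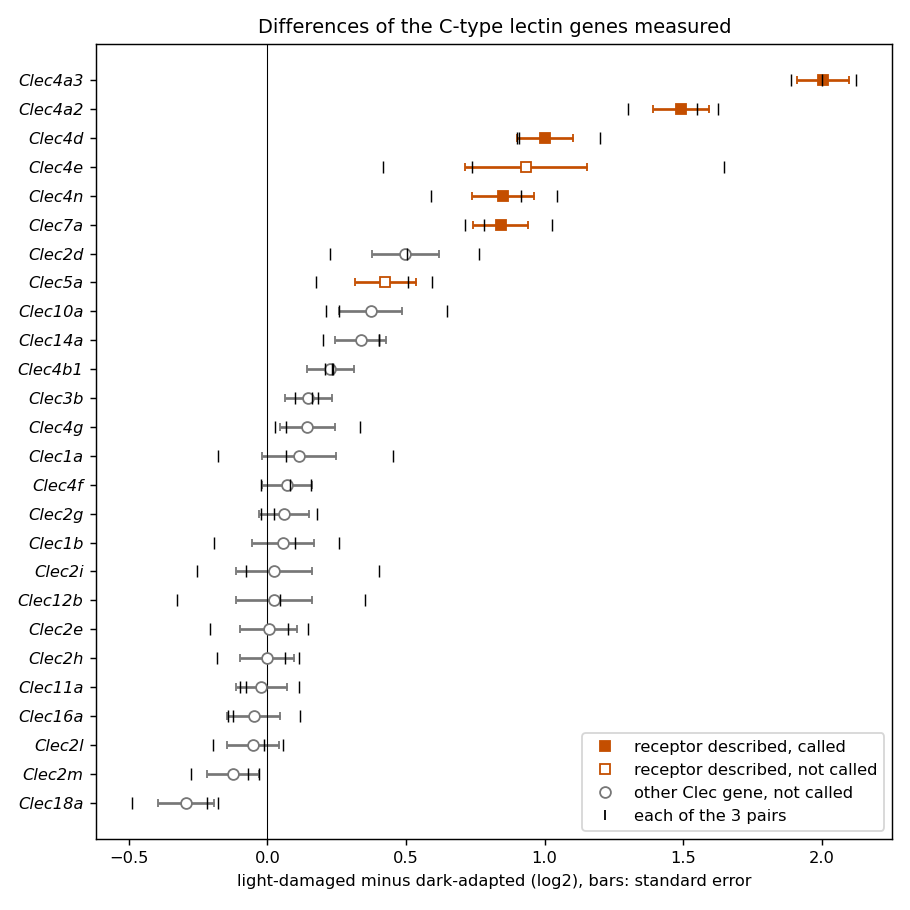
Difference in log2 level, light-damaged minus dark-adapted (horizontal axis, bars are standard errors, ticks the 3 replicate pairs), for the 7 receptors and the 19 other genes with a Clec symbol. Filled points were called higher, and the 5 filled points are all among the 7 receptors, which were picked with these differences known.

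The receptors lie in 3 stretches of chromosome 6, with Clec5a apart from the rest. In chromosome order, Clec4a3, Clec4a2, Clec4n, Clec4d and Clec4e share a stretch, and Clec12a and Clec7a share another among genes of the natural killer complex. Within 3 protein-coding genes of a receptor, or between receptors of a stretch, the gene table lists 25 other genes, of which 15 were measured. Their differences lay between -0.24 and 0.98, and 1 of the 15 was called, where 3.07% of all genes were called higher and 1.92% lower. That gene was C3ar1, the receptor for the complement fragment C3a, carried by macrophages and microglia, with a difference of 0.98 ± 0.09 (limma adjusted p 0.0037). Clec4b1, which lies between Clec4a3 and Clec4a2 and encodes a dendritic cell lectin, differed by 0.23 ± 0.08 (limma adjusted p 0.2127).

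**Figure D3:**
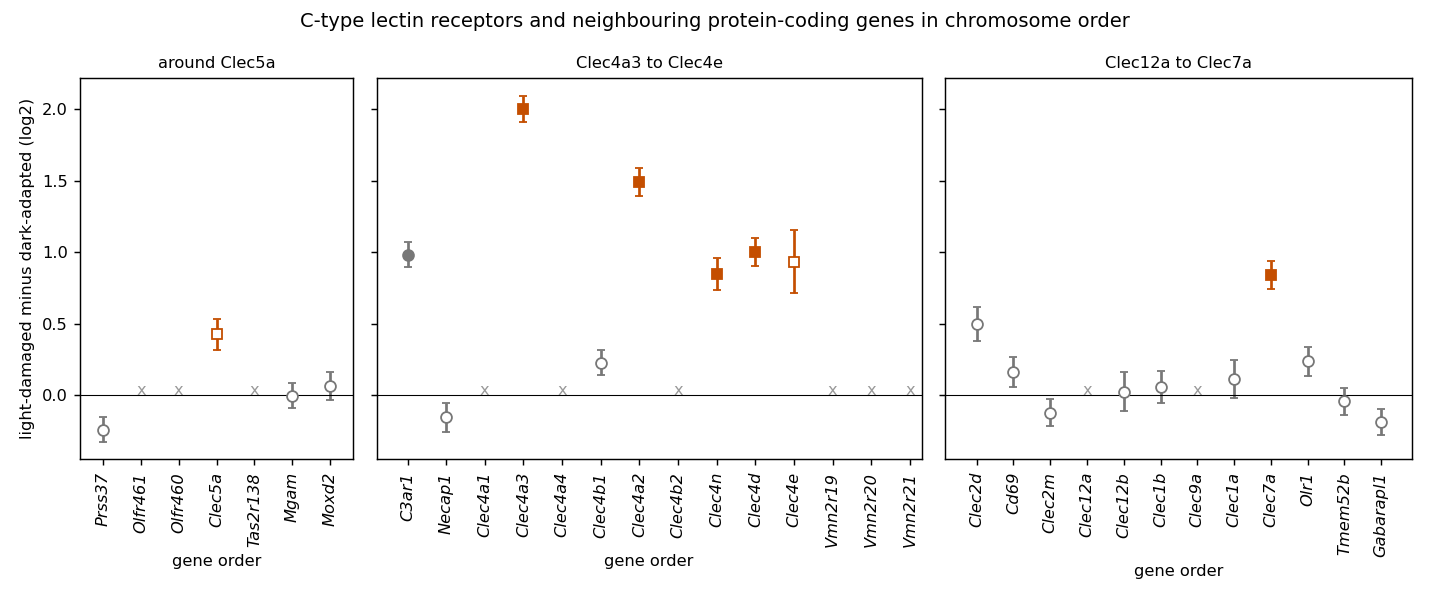
Difference in log2 level, light-damaged minus dark-adapted (vertical axis, bars are standard errors), for the receptors (squares) and neighbouring protein-coding genes (circles) in chromosome order, with the 3 stretches in separate panels. Filled symbols were called higher, a small x marks a gene not analysed here, and C3ar1 is the 1 called neighbour.

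The RefSeq promoter table (GRCm38.p6) held 6 of the 7 measured receptors, all but Clec4n, and the 250 bases before the most upstream listed start were searched on both strands for 4 motifs. PU.1, a transcription factor of all myeloid cells, was searched as GAGGAA, which 4 of the 6 held (Clec4d, Clec4e, Clec5a and Clec7a), against 23.1% of 27018 promoters. The C/EBP family was searched as TTNNGNAA, which 4 of the 6 held (Clec4a2, Clec4d, Clec4e and Clec5a), against 37.0%. A STAT motif (TTCNNNGAA) was in Clec4a2 alone, against 7.14%, and an AP-1 motif (TGANTCA) in 0 of the 6, against 6.85%. These matches are a description of the letters and not of binding. The windows of the DCIR pair, of the Clec4d and Clec4e pair and of Clec7a are printed 5′ to 3′ on the strand of the gene so that the members with the largest and the most uneven differences can be compared. Capitals mark PU.1 and C/EBP matches, and where matches overlap they run together.
Clec4a3, chr6:122952265-122952514, plus strand: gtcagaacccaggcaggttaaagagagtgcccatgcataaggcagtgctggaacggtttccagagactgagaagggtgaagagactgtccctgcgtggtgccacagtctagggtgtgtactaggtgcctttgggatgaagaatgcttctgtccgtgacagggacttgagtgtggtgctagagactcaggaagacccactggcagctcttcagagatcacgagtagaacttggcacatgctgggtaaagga
Clec4a2, chr6:123122440-123122689, plus strand: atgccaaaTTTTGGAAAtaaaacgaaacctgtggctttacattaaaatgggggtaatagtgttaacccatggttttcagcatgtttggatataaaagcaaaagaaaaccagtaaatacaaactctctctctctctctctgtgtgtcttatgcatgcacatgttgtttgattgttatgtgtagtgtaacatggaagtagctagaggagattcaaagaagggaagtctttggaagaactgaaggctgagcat
Clec4d, chr6:123261857-123262106, plus strand: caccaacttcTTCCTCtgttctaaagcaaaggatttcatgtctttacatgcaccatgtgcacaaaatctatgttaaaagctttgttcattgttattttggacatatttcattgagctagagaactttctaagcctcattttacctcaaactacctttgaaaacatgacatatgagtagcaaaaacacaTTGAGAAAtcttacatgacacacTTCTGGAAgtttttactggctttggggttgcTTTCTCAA
Clec4e, chr6:123289872-123290121, minus strand: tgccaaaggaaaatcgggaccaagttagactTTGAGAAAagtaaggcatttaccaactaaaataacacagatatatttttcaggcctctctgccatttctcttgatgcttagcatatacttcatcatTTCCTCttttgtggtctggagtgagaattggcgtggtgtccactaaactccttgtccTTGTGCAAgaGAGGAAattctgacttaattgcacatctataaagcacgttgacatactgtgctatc
Clec7a, chr6:129472786-129473035, minus strand: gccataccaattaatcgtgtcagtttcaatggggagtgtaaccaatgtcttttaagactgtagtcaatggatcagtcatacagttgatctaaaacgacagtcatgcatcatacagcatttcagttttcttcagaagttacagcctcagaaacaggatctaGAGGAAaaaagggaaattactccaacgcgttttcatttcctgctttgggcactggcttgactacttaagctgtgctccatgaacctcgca

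The Clec4e window holds a C/EBP and a PU.1 match close together, at bases -66 to -59 and -56 to -51 from the start, and a further match of each kind upstream. The Clec4d window has 3 C/EBP matches, the last ending at base -1, and 1 PU.1 match at its far end. Clec7a has 1 PU.1 match at -90 to -85. The Clec4a2 window has 2 overlapping C/EBP matches between bases -242 and -234. Clec4a3, with the largest difference, has no match of either kind in this window, but the 250 bases before its second listed start hold 1 PU.1 match.

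Of 8 measured myeloid transcription factors, 4 rose, 0 fell and 4 did not pass the test, with a median difference of 0.50. Among all genes, 3.07% were called higher and 1.92% lower. Spi1, which encodes PU.1, had log2 levels of 8.94, 8.42 and 8.41 in light-damaged RPE, against 7.75, 7.48 and 7.62 in dark-adapted RPE. Its groups were clearly apart, at 0.97 ± 0.11 (limma adjusted p 0.0069). Cebpd, a C/EBP factor induced in inflammation, had 13.10, 12.50 and 12.73 in light-damaged RPE, against 10.84, 9.57 and 9.89 in dark-adapted RPE, the widest gap of the list at 2.68 ± 0.14. Cebpb, its relative in macrophage activation, rose by 1.11 ± 0.08, and Irf8, a factor of macrophage and dendritic cell development, by 0.84 ± 0.10. Cebpa, the C/EBP factor of early myeloid cells, differed by 0.11 ± 0.11, and Runx1, Klf4 and Irf5 by at most 0.16. Without the replicate 3 pair 3 were called, and without the block 0 of the 8 were called by limma and 4 had an unadjusted p under 0.05.

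Both adaptors that carry the activating signal of these receptors rose, where 3.07% of all genes were called higher. Fcer1g, the partner of Clec4e, Clec4d and Clec4n, had log2 levels of 9.45, 9.19 and 9.08 in light-damaged RPE, against 8.58, 8.09 and 8.13 in dark-adapted RPE, a difference of 0.97 ± 0.09 (limma adjusted p 0.0047). Tyrobp, the partner of Clec5a, had 11.78, 10.66 and 10.67 in light-damaged RPE, against 10.46, 9.73 and 9.76 in dark-adapted RPE, a difference of 1.06 ± 0.11. For both genes the groups were separate and replicate 1 was the highest array of its group. Hcst, a further adaptor of similar form, differed by 0.33 ± 0.12 (limma adjusted p 0.19) and was not called. Both calls were also made without any 1 of the 3 pairs, and without the block 0 of the 3 were called and 2 had an unadjusted p under 0.05.

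Further along the activating route, 4 of 26 measured genes rose, 0 fell and 22 did not pass the test, with a median difference of 0.12. The shares of all genes called were 3.07% higher and 1.92% lower. Syk, the kinase that all the activating receptors share, had log2 levels of 9.32, 8.71 and 8.27 in light-damaged RPE, against 8.13, 8.16 and 7.72 in dark-adapted RPE. The lowest light-damaged array was just above the highest dark-adapted one, and the difference was 0.76 ± 0.14 (limma adjusted p 0.04). Relb, an NF-kB subunit, rose by 0.79 ± 0.13, Plcg2, the phospholipase downstream of Syk, by 0.54 ± 0.10 and Vav1, an exchange factor of blood cells, by 0.53 ± 0.10. The other measured members of the list, among them the Src family kinase Fgr at 0.50 ± 0.13 and the kinase Btk at 0.40 ± 0.08, were not called. Without the replicate 1, 2 or 3 pair, 4, 2 or 1 genes were called, and without the block 0 were called and 5 had an unadjusted p under 0.05.

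On the inhibitory side, 2 of 8 measured genes rose and 0 fell, with a median difference of 0.21. Among all genes, 3.07% were called higher and 1.92% lower. Ptpn6, the phosphatase SHP-1 that DCIR1 recruits, had log2 levels of 10.88, 10.68 and 10.56 in light-damaged RPE, against 10.44, 10.20 and 10.13 in dark-adapted RPE. The step was small but the groups did not overlap, at 0.45 ± 0.08 (limma adjusted p 0.04), measured by a probe set (x_at) that can bind related transcripts. Inpp5d, the lipid phosphatase SHIP-1, rose by 0.61 ± 0.10. Without the replicate 2 pair 1 of these 2, Inpp5d, was called and without the replicate 3 pair 0 were, and without the block 0 were called and 3 had an unadjusted p under 0.05.

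Among 19 genes reported to be switched on through these receptors, 2 rose, 0 fell and 17 did not pass the test. Their median difference was 0.18. The shares of all genes called were 3.07% higher and 1.92% lower. Ccl3, a chemokine of macrophages, had log2 levels of 8.91, 7.23 and 7.33 in light-damaged RPE, against 7.01, 6.28 and 6.06 in dark-adapted RPE. Replicate 1 was high in both groups, the groups did not overlap, and the difference was 1.37 ± 0.18 (limma adjusted p 0.01). Egr2, an early response transcription factor induced by Dectin-1, rose by 0.56 ± 0.10. Its means of 6.18 in light-damaged and 5.62 in dark-adapted RPE were low, under the lower quartile of gene means (6.93). Il6 had levels of 6.71, 4.48 and 4.43 in light-damaged RPE, against 4.92, 4.44 and 4.51 in dark-adapted RPE, so that 1 array, light-damaged replicate 1, stood apart, and at 0.58 ± 0.34 it was not called. Without the replicate 1 pair the Il6 difference was -0.02. Cxcl2, at 0.76 ± 0.34, was not called, and its 3 pairs differed by 1.96, 0.08 and 0.24. The means of Il6 (5.20 and 4.62) and Cxcl2 (6.80 and 6.04), light-damaged first, were also under that quartile. Il1b, at 0.66 ± 0.16, was not called, and its pairs differed by 1.14, 0.39 and 0.46, though it was called when either the replicate 1 pair (0.42) or the replicate 2 pair (0.80) was left out. Tnf differed by 0.18 ± 0.09. Without the replicate 1 or 2 pair 3 or 2 were called, and without the replicate 3 pair 1 was. Without the block 0 were called and 2 had an unadjusted p (limma) under 0.05, where 5.94% of all genes had one.

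A list of genes for proteins of the body's own reported to bind these receptors had 5 measured members. Of these 3 rose, 0 fell and 2 did not pass the test, with a median difference of 0.61. Among all genes, 3.07% were called higher and 1.92% lower. Vim, an intermediate filament protein reported to bind Dectin-1, rose by 1.28 ± 0.12, Anxa5, an annexin reported to bind it when cells die, by 0.76 ± 0.11 and Lgals9, a galectin reported to bind Dectin-1, by 0.61 ± 0.11. Vim was measured by a probe set (x_at) that can bind related transcripts. The splicing protein reported to bind Mincle when cells die, often called SAP130, is the product of Sf3b3, which differed by 0.17 ± 0.09 (limma adjusted p 0.3550) and was not called. Sf3b3 was not on the list, so it is not among the 5. The gene with the symbol Sap130, which the list held by mistake and which is left out of these counts, encodes another protein. Without the replicate 1, 2 or 3 pair 4, 3 or 1 of the 5 were called, and without the block 0 were called and 3 had an unadjusted p under 0.05.

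**Figure D4:**
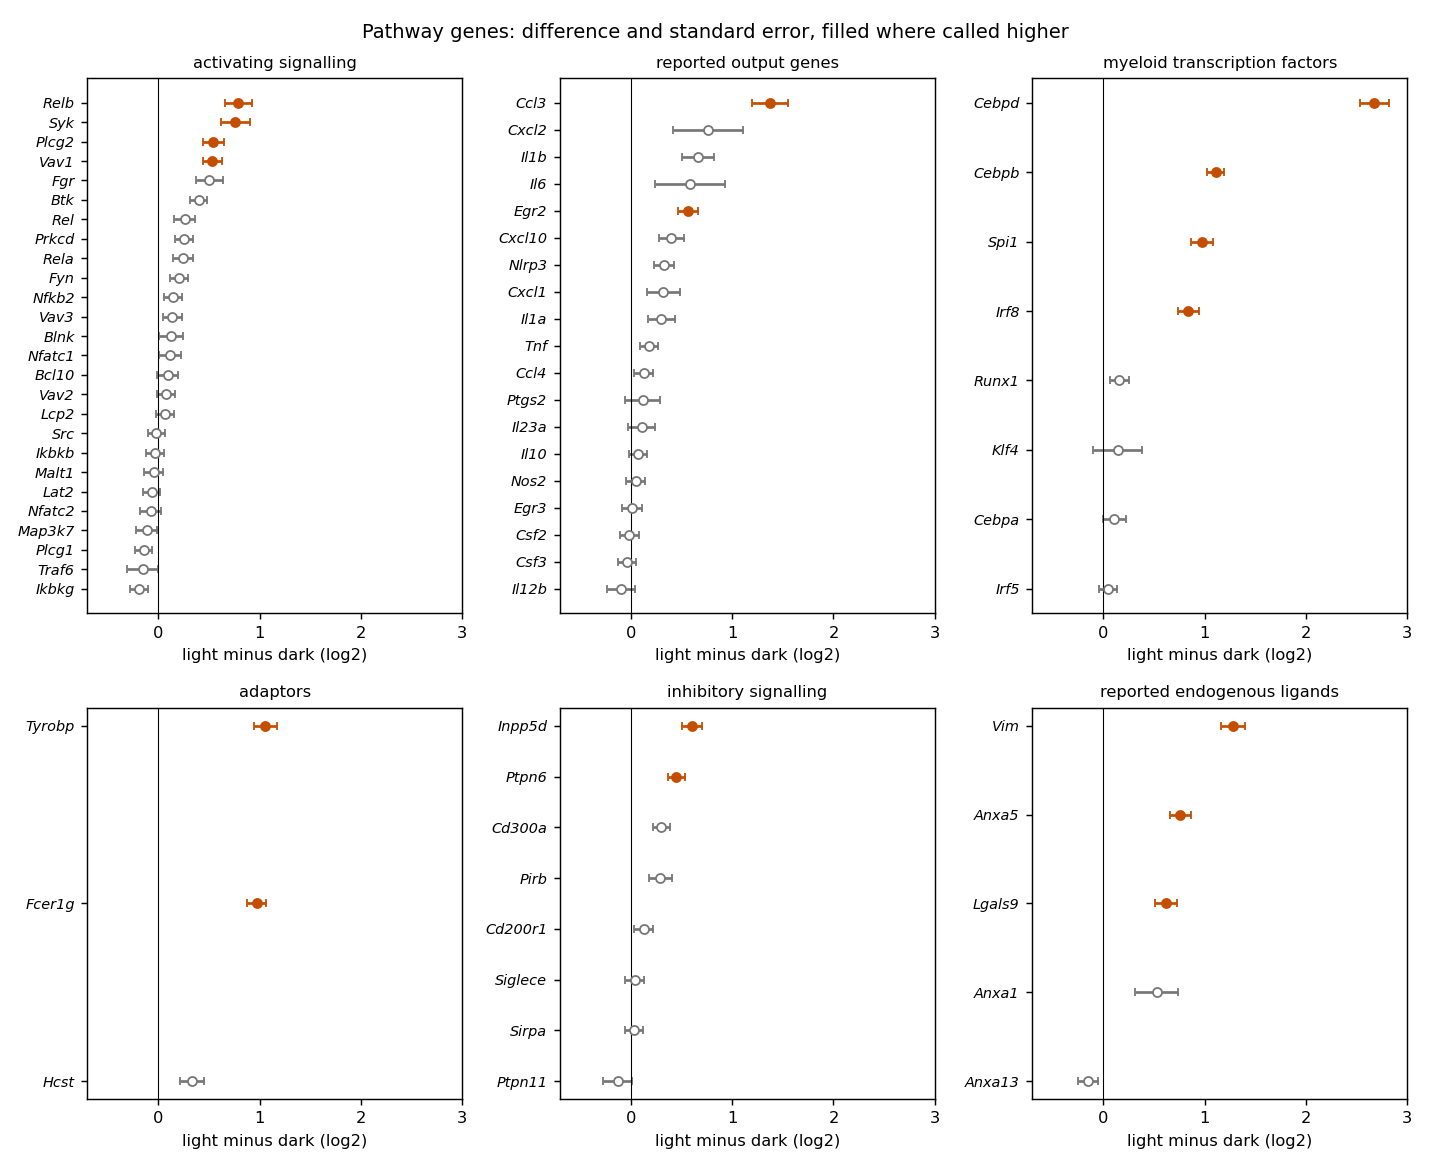
Difference in log2 level, light-damaged minus dark-adapted (horizontal axis, bars are standard errors), for each measured gene of 6 lists around the receptors, without Sap130. Filled points were called higher with the block, and the widest differences are those of Cebpd at 2.68, Ccl3 at 1.37 and Vim at 1.28.

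By likeness of profile, the 8 genes nearest to the mean centred profile of the 7 receptors over the 6 arrays were Cebpb, Ly86, Fcer1g, Spi1, Cd53, Glipr1, C1qc and Dab2. Their root mean square log2 difference from that profile lay between 0.078 and 0.096, where that of single receptors lay between 0.15 for Clec4n and 0.54 for Clec4a3. Since the measure uses the same 6 arrays as the contrast, that all 8 were called is no separate result. Ly86 encodes a partner of a Toll-like receptor relative on myeloid cells, at a difference of 0.94 ± 0.09. C1qc, a chain of complement C1q, differed by 0.93 ± 0.08 and Cd53, a leukocyte tetraspanin, by 1.17 ± 0.09.

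Markers of some other cells moved with the receptors. Of 20 macrophage and microglia markers, 14 rose and 0 fell, with a median difference of 0.69, and their mean log2 level was 9.75 to 9.88 in light-damaged RPE, against 9.05 to 9.20 in dark-adapted RPE. Summed on the linear scale, these markers ran between 32302 and 43482 in light-damaged RPE, against 22732 to 30327 in dark-adapted RPE. Cd68, a lysosomal protein of macrophages, rose by 2.11 ± 0.11, and Cx3cr1, carried by resident microglia and some monocytes, by 0.50 ± 0.10. Tmem119 and P2ry12, markers of resident microglia, differed by 0.03 ± 0.09 and -0.34 ± 0.09 and were not called. The P2ry12 means, 6.38 in light-damaged and 6.72 in dark-adapted RPE, were under the lower quartile of gene means (6.93). Background cannot be told apart there. Csf1r, Mertk, Siglech and Trem2 were not called either, at -0.15 ± 0.09, -0.34 ± 0.13, -0.22 ± 0.13 and 0.20 ± 0.10. Leaving out the replicate 1, 2 or 3 pair, 14, 9 or 9 markers rose, and without the block 0 were called by limma and 10 had an unadjusted p under 0.05. Of 7 monocyte markers 4 rose (F13a1, Fn1, Hp and Chil3). The mean of the 7 was 9.16 to 9.40 in light-damaged RPE, against 8.32 to 8.44 in dark-adapted RPE. Ccr2, Plac8 and Vcan, at 0.19 ± 0.09, 0.55 ± 0.15 and 0.33 ± 0.21, were not called. Of 12 neutrophil markers 3 rose (Lcn2, S100a8 and S100a9, at 3.87 ± 0.23, 1.90 ± 0.14 and 1.10 ± 0.09), and their mean was 8.09 to 8.72 in light-damaged RPE, against 7.46 to 7.96 in dark-adapted RPE. The granule genes Mpo, Elane, Ngp, Camp and Ltf, made by maturing neutrophils, differed by -0.10 to 0.08 and were not called. The dark-adapted means of Hp, Chil3 and S100a8 (6.39, 5.56 and 5.70) were also under the lower quartile of gene means. The S100a8 probe set is of the kind (s_at) that can bind related transcripts. Without the block 1 of the 7 and 0 of the 12 were called by limma, and 5 and 3 had an unadjusted p under 0.05. Among dendritic cell, mast cell, lymphocyte and endothelium markers, 1 of 11, 0 of 8, 0 of 7 and 1 of 8 rose. Over all genes, 3.07% were called higher. At an unadjusted p under 0.05 (limma) there were 4, 2, 0 and 2 markers of these lists in either direction.

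The 12 RPE markers had a mean log2 level of 11.93 to 12.34 in light-damaged RPE, against 12.45 to 12.70 in dark-adapted RPE, and 2 of them, Pmel and Lrat, fell. Of 12 photoreceptor markers 7 fell, and their mean was 11.21 to 11.88 in light-damaged RPE, against 11.83 to 12.43 in dark-adapted RPE. Over all genes, 1.92% were called lower. When the replicate 1, 2 or 3 pair was left out, 2, 2 or 0 RPE markers and 5, 3 or 3 photoreceptor markers fell. Without the block 0 of either were called by limma. There were then 2 and 4 at an unadjusted p (limma) under 0.05, where 5.94% of all genes had one. No marker is at 0 in values of this kind. The part of these cell types in the difference of the receptors was not tested.

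**Figure D5:**
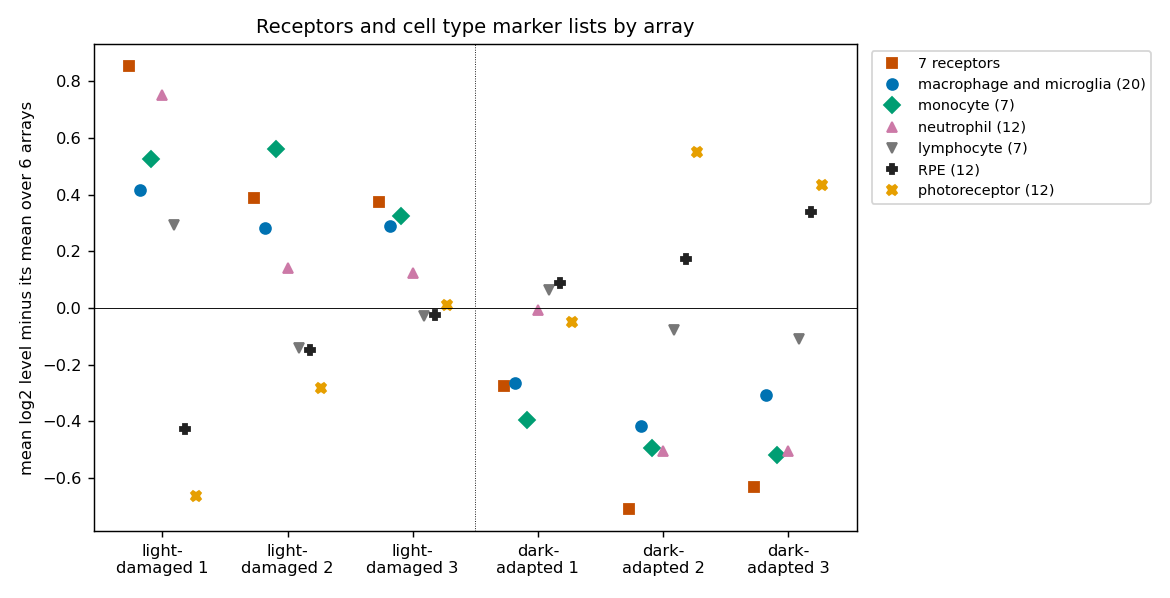
Mean log2 level of the 7 receptors and of 6 lists of cell type markers in each array (horizontal axis, light-damaged left), as the difference from the mean of the list over 6 arrays (vertical axis). The receptors and the macrophage, microglia, monocyte and neutrophil markers are above 0 in the 3 light-damaged arrays and below 0 in the 3 dark-adapted arrays. The neutrophil markers are only just below 0 in dark-adapted replicate 1.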

How the data were processed

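Total RNA from the RPE of BALB/c mice was extracted with Trizol and a column kit, labelled with biotin and hybridised to 6 arrays, per the labels' protocols. The authors deposited log2 expression values per probe set, for which the submitters' processing notes name RMA (version not given in the sources used here). RMA compresses differences near background, and the values carry no detection calls. They ran between 3.72 and 14.82.

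Of 45101 probe sets, 64 were controls, 34945 had 1 gene symbol in the platform annotation, 932 had several and 9160 had none that was used. The GRCm38.p6 gene table held the Entrez number of 34741 of these and changed 0 symbols. The brightest probe set over all 6 arrays stood for a gene, giving 18193 genes, and 9010 genes had more than 1 to choose from.

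The contrast was fitted in R 4.3.3 by lmFit and eBayes of limma 3.58.1 (no trend, not robust, two-sided), with replicate number as a block (2 residual degrees of freedom), and calls were made at a Benjamini-Hochberg adjusted p under 0.05 over all genes. The labels number the arrays 1 to 3 in both groups without saying what a number shares. Same-numbered arrays correlated at 0.89, 0.62 and 0.86, all above a bound of 0.1, but crossing the numbers 2 and 3 gave 0.61 (light-damaged 2, dark-adapted 3) and 0.65 (light-damaged 3, dark-adapted 2), so the pairing rests mostly on replicate 1. The fit without the block had 4 residual degrees of freedom. The fit was tested on simulated data. A first simulation, with variances taken gene by gene from the fit, gave more false calls with the block than the nominal share. After the simulation was changed to draw variances from limma's fitted prior, it did not, so the false discovery rate of calls with the block may exceed the threshold where variances do not follow that prior.

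The receptors and all gene lists were chosen with earlier results of these data known. Named genes were all receptors and adaptors, list genes called with the block, the 4 smallest p or 3 largest differences either way among other Clec genes, and the 8 most alike profiles. Other list genes, the neighbour rule and the promoter window were set after values were seen. The window was moved from the first listed to the most upstream start after matches had been read, to keep transcribed sequence out. A planned comparison of the proteins was not made here.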

Additional observations from a re-analysis of the deposited data

Results flagged for a closer look

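One signal lay outside the comparisons, in a probe set that the annotation gives to both Clec4b1 and Clec4a2 and that was therefore not used for either. It had log2 levels of 9.26, 8.90 and 8.84 in light-damaged RPE, against 8.31, 7.98 and 7.74 in dark-adapted RPE, a mean difference of 0.99. The probe sets given to 1 gene alone differed by 1.49 ± 0.10 and 0.02 ± 0.09 for Clec4a2 and by 0.23 ± 0.08 for Clec4b1, so the shared probe set lies between them and its signal cannot be assigned to either gene.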

How the results depend on the processing

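Across 17 alternatives the differences of the 7 receptors stayed above 0 in every fit that measured them. Without the replicate block the count of called receptors was 1 in place of 5 and that of all genes 9 in place of 908, and in the pathway lists 0 genes were called among adaptors (2 with the block), activating (4) and inhibitory signalling (2), reported output genes (2), reported ligands (3) and myeloid transcription factors (4). Leaving out single arrays from that fit gave 0 to 1 receptors, 3 to 12 genes in all and 0 in each list. With the block, leaving out a pair gave 4 to 7 receptors, 228 to 1245 genes in all, 1 to 4 activating and 0 to 2 inhibitory genes, 1 to 3 output genes, 1 to 4 ligands, 3 to 4 transcription factors, 2 adaptors throughout and 0 to 1 other Clec genes. With genes below the median level left out, 1 receptor was called, since only Clec7a was tested, with 2 activating genes, 2 transcription factors and 0 output genes. Array weights gave 7 receptors, 1875 genes in all, 2 other Clec genes, 6 activating and 4 output genes. Quantile normalization gave 2 activating genes, the pseudocount of 16 gave 1 output gene and the mean of all probe sets 1 inhibitory gene. Alternatives for marker lists, for single output genes and for the list of ligands were added after the data were seen. The Il6 difference lay between -0.023 and 0.92 with a pair left out. The ligands had 3 calls with and without Sap130. The mean of all probe sets lowered Clec4a2 to 0.76. The cause of these changes was not tested, apart from the filter. The number of arrays and the lack of detection calls limit what low values can show.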
